A study of Anas platyrhynchos with 5 samples.

Results

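Described here are the miRNAs cut from a pair of hairpins, mir-144 and mir-2188, in the feather bulbs of ducks (Anas platyrhynchos). Their 4 mature products are miR-144-3p, miR-144-5p, miR-2188-3p and miR-2188-5p, out of 134 distinct mature names counted in the series. They were chosen by name, and with their read counts in all 5 libraries already known, because they varied together. Their levels over the libraries are therefore given as a description, and no p-value is read for them.

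The series set out to compare miRNAs of black and white feather bulbs, the base of the growing feather. Each library is a pool: 3 bulbs were taken per duck, and birds of the same breed were combined. The black libraries (n = 2) came from Cui Hei, a breed with pure black plumage, and from black bulbs of Kaiya-Liancheng F2 ducks. The white libraries (n = 3) came from Kaiya and Liancheng, breeds with pure white plumage, and from white bulbs of the F2. The plumage of the F2 ducks, black bulbs and white alike, is labelled white-black. All ducks were 12 months old, with no treatment named, and how many ducks went into each pool is not stated. Each pool was sequenced once, so spread between birds of a pool was not measured. Colour and breed cannot be told apart among the pure breeds, whereas both F2 libraries come from 1 cross.

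miR-144 is best known from red blood cells. In mouse and zebrafish it is transcribed together with miR-451 from a locus switched on by the erythroid factor GATA1, and the locus takes part in the maturation of red cells. miR-2188 is a miRNA named in fish, frogs and birds. In birds the circulating red cells keep their nucleus, and the pulp at the core of a growing feather is supplied with blood vessels. A bulb pulled whole can therefore carry blood as well as epidermis, dermis and pigment cells.

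The mature sequences, as the tables list them, show what was counted and how the 4 products differ. Capitals mark the seed, bases 2 to 8, with which a miRNA finds its targets.
miR-144-3p: uACAGUAUagaugauguacucc
miR-144-5p: cGAUAUCAucguauacuguaagu
miR-2188-3p: aUAUAUGUggucagaccuaucc
miR-2188-5p: aAGGUCCAaccucacauguccu
All 5 tables list the same sequence for each of them. The 4 seeds differ from one another, and none is shared with any of the other 133 mature names. Of the products, 3 are 22 bases long and miR-144-5p has 23. Their GC content is lowest in miR-144-5p, at 34.8%, and highest in miR-2188-5p.

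The hairpins are printed here because the balance of their arms is described further on. Capitals mark the 5p arm at the left end and the 3p arm at the right end.
mir-144: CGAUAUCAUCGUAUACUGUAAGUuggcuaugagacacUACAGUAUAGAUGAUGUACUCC
mir-2188: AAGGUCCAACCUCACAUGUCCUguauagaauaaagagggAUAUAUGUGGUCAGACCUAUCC
The mir-144 hairpin has 59 bases with 14 between its arms, and mir-2188 has 61 with 17 between them. A computed fold gave 20 base pairs and a free energy of -19.90 kcal/mol for mir-144, and 17 base pairs and -20.10 kcal/mol for mir-2188. Each mature product is listed under 1 hairpin, so no reads were split between copies. No read of either hairpin fell outside its listed arms in any library.

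Depth sets how well these rare miRNAs are known. With each mature name counted once, the libraries held from 1601329 reads (Liancheng) to 4269854 reads (Kaiya). Levels are given as CPM, counts per 1e6 mature miRNA reads, after TMM scaling for library composition. Intervals on a level are exact Poisson intervals at the 95% level, which cover counting error only. A level of 3 reads, taken as the floor, lay between 0.729 and 1.86 CPM.

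miR-144-3p, the arm usually meant by the name miR-144, was highest in the black libraries and lowest in Liancheng. It had 1297 reads in Cui Hei, 621 in black F2, 784 in Kaiya, 406 in white F2 and 102 in Liancheng. These are 348 CPM in Cui Hei (interval 329.5 to 368), 299 in black F2 (276 to 324), 191 in Kaiya (178 to 204), 155 in white F2 (140 to 171) and 63.2 in Liancheng (51.5 to 76.7). The black pair was above each of the 3 white libraries, and no neighbours in this order had overlapping intervals. The highest level was 5.51 times the lowest. In rank it ran from place 50 of 134 in Cui Hei to place 81 in Liancheng.

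miR-144-5p, the opposite arm, kept the same order of libraries at lower levels. Its reads numbered 399 in Cui Hei, 191 in black F2, 356 in Kaiya, 177 in white F2 and 27 in Liancheng. The levels were 107 CPM in Cui Hei (96.9 to 118), 92.0 in black F2 (79.4 to 106), 86.5 in Kaiya (77.8 to 96.0), 67.6 in white F2 (58.0 to 78.4) and 16.7 in Liancheng (11.02 to 24.3). Cui Hei, black F2 and Kaiya were close, with the intervals of neighbours overlapping, and Kaiya and white F2 overlapped slightly. Liancheng stood apart from all of them, and the Cui Hei level was 6.41 times the Liancheng level.

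miR-2188-5p was the most abundant of the 4 in every library but Liancheng. It had 2346 reads in Cui Hei, 1055 in black F2, 2214 in Kaiya, 724 in white F2 and 84 in Liancheng. Its levels were 630 CPM in Cui Hei (605 to 656), 538 in Kaiya (516 to 561), 508 in black F2 (478 to 540), 277 in white F2 (257 to 298) and 52.0 in Liancheng (41.5 to 64.4). Black and white overlapped here, since white Kaiya lay between the black libraries, and the intervals of Kaiya and black F2 overlapped. The highest level was 12.1 times the lowest, the widest span of the 4. It held place 44 of 134 in both Cui Hei and Kaiya and place 85 in Liancheng.

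miR-2188-3p, the opposite arm, was the rarest of the 4. The reads were 122 in Cui Hei, 67 in black F2, 81 in Kaiya, 55 in white F2 and 9 in Liancheng. The levels were 32.8 CPM in Cui Hei (27.2 to 39.1), 32.3 in black F2 (25.01 to 41.0), 21.0 in white F2 (15.8 to 27.4), 19.7 in Kaiya (15.6 to 24.5) and 5.57 in Liancheng (2.55 to 10.6). The black pair could not be separated at this depth, nor could Kaiya and white F2. The black pair was above each of the 3 white libraries in level, though the intervals of both overlapped that of white F2. Even in Liancheng all 4 products were above the floor of 3 reads.

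**Figure D1:**
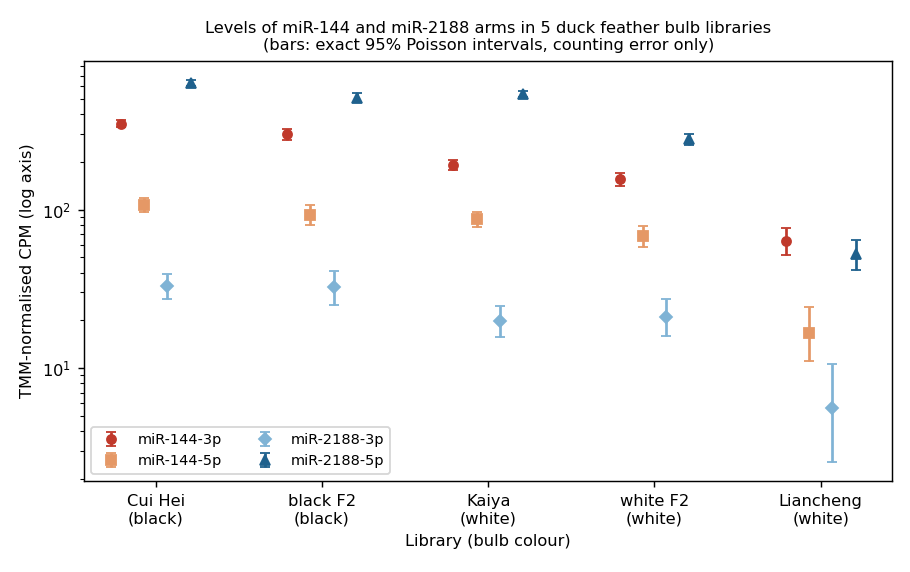
Levels of the 4 products (TMM-normalised CPM, log axis) in each of the 5 libraries, with bulb colour in brackets; points are single libraries and bars exact 95% Poisson intervals. All 4 points are lowest in Liancheng, where miR-144-3p stands at 63.2 CPM and miR-2188-3p at 5.57 CPM.

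Together the 4 products made up a small and uneven part of the libraries. They took 0.1198% of mature reads in Cui Hei (4164 reads; 95% Clopper-Pearson interval 0.116% to 0.123%) and 0.0973% in black F2 (1934 reads; 0.0930% to 0.102%). In the white libraries they took 0.0804% in Kaiya (3435 reads; 0.0778% to 0.0832%), 0.0479% in white F2 (1362 reads; 0.0454% to 0.0505%) and 0.0139% in Liancheng (222 reads; 0.0121% to 0.0158%). No intervals of these shares overlapped, and the highest share was 8.64 times the lowest. The white F2 share lay between those of the Kaiya and Liancheng breeds it descends from, and the black F2 share above both. In pooled bulbs, fewer cells of a type and less RNA per cell cannot be told apart.

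The joint level, the mean of the 4 log2 levels with 0.5 read added to each count, put the libraries in the order Cui Hei, black F2, Kaiya, white F2, Liancheng. Measured from its mean over the libraries, on the log2 scale, it stood at 0.89 in Cui Hei, 0.70 in black F2, 0.35 in Kaiya, -0.025 in white F2 and -1.91 in Liancheng. The range of 2.80 on the log2 scale is a 6.94-fold span. Cui Hei was the highest and Liancheng the lowest library for each of the 4 products. Among all 114 miRNAs that passed the filter on low counts, 5 (4.39%) had these same extremes, namely the 4 and miR-99a-5p, whose own log2 range was 0.12. Without Liancheng 17 of the 114 (14.9%) shared the extremes of the joint level, among them 3 of the 4. The full order of the 5 libraries was that of 2 miRNAs, miR-144-3p and miR-144-5p. Since the 4 were chosen because they varied together, nothing is read from these counts.

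How closely the 4 followed each other was measured as the root mean square difference, in log2 units, between profiles centred on their own mean over the 5 libraries. The smallest difference was that of miR-144-3p and miR-2188-3p, products of different hairpins, at 0.20. miR-144-5p and miR-2188-3p were 0.22 apart, and the arms of mir-144 were 0.30 apart. The arms of mir-2188 were 0.54 apart, and miR-2188-5p and miR-144-3p were the farthest pair at 0.57. No counting intervals were computed for these differences, and miR-2188-3p had 9 reads in Liancheng, so nothing is read from the order of pairs. Of the 4, miR-2188-5p departed most from the joint level (0.36) and miR-144-5p least (0.11). The departure of miR-2188-5p lies in a higher Kaiya level (0.84 from its mean, against 0.07 for miR-144-3p, 0.46 for miR-144-5p and 0.04 for miR-2188-3p). It lies also in a lower Liancheng level (-2.53 from its mean, against -1.51, -1.89 and -1.71 in the same order). The -1.71 rests on 9 reads. Of these comparators miR-144-5p, the other 5p arm, was the nearest to miR-2188-5p in both libraries. The counting interval of the Cui Hei to Liancheng log2 ratio of miR-2188-3p, 1.58 to 3.72, held the 3.59 of miR-2188-5p.

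**Figure D2:**
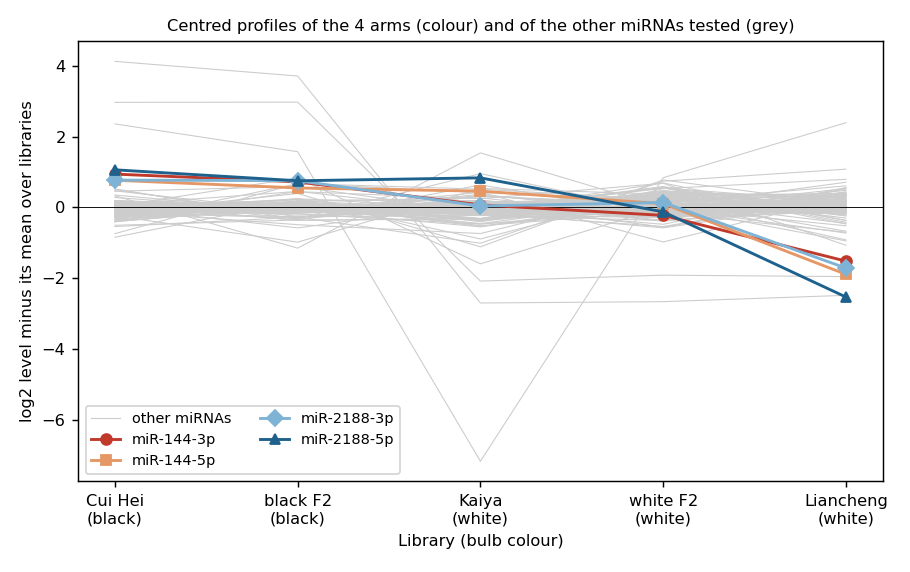
Log2 levels measured from each miRNA's mean over the libraries (vertical axis) in the 5 libraries, for the 4 products in colour and the other miRNAs tested in grey; lines only join the values of 1 miRNA. The 4 profiles run from between 0.77 and 1.06 in Cui Hei to between -1.51 and -2.53 in Liancheng, and the grey line near -7 in Kaiya is a hairpin that table does not list, taken as 0.

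The 4 ranked among the most variable miRNAs over the libraries. By log2 range, miR-2188-5p was in place 4 of 114 (3.59), miR-144-5p in place 6 (2.65), miR-2188-3p in place 7 (2.48) and miR-144-3p in place 8 (2.46). The median range of the 114 was 0.65. The 4 were chosen with their levels known, because they varied together, so nothing is read from these places. Most of the width of the 4 ranges came from Liancheng. Without Liancheng, an alternative chosen after seeing the data, the range was 1.19 for miR-2188-5p, 1.17 for miR-144-3p, 0.73 for miR-2188-3p and 0.66 for miR-144-5p, with a median of 0.57 over the 114. Their places were then 15, 16, 37 and 48, and the joint range was 0.91, a 1.88-fold span. Liancheng was also the shallowest library, at 1601329 reads. It was the lowest library for 24 of the 114 miRNAs (21.1%), close to an even share among the libraries. The part that depth plays in the low Liancheng levels was not tested.

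**Figure D3:**
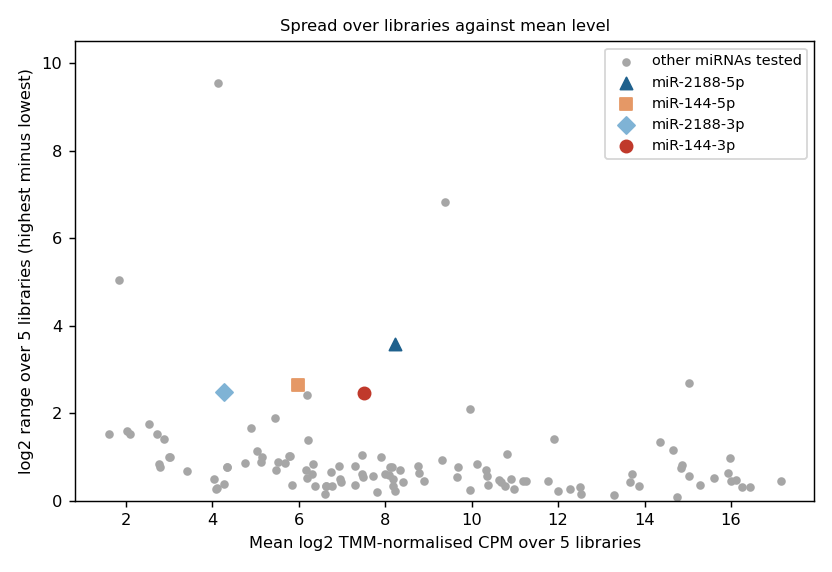
The log2 range over the 5 libraries (highest minus lowest) against the mean log2 level, 1 point per miRNA tested; the 4 products are coloured. They lie between 2.46 and 3.59 on the vertical axis, where the median of all 114 is 0.65, over mean levels that span those of many less variable miRNAs. The 4 were chosen with these levels known, so nothing is read from their place.

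Set by colour, the 4 products had higher mean levels in black than in white bulbs, with a wide spread among the white libraries. miR-144-3p stood at 324 ± 34.7 CPM in black (SD, n = 2) and 136 ± 65.8 CPM in white (SD, n = 3). For miR-144-5p the means were 99.6 ± 10.7 CPM in black and 57.0 ± 36.1 CPM in white. miR-2188-5p had 569 ± 86.0 CPM in black and 289 ± 243 CPM in white. The values of miR-2188-3p were 32.5 ± 0.340 CPM in black and 15.4 ± 8.56 CPM in white, and the black SD is smaller than the counting error of either library.

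The fitted black minus white differences, from edgeR's quasi-likelihood model over all 114 miRNAs, were 1.24 ± 0.45 (log2, SE) for miR-144-3p and 1.03 ± 0.50 for miR-2188-3p. They were 0.97 ± 0.82 for miR-2188-5p and 0.79 ± 0.61 for miR-144-5p. Their median was 1.00, and that of all 114 miRNAs was -0.03. At an adjusted p of 0.05 edgeR called 0 of the 4 and 2 of the 114 (1.75%), with 4 of the 114 at an unadjusted p under 0.05. The DESeq2 and limma-voom tests also called 0 of the 4. The black pair exceeded every white library for 3 of the 4 products and for 8 of the 114 miRNAs (7.02%). Since the members were chosen with these levels known, nothing is read from these counts. Without Liancheng the differences were 0.92 for miR-144-3p, 0.38 for miR-144-5p, 0.70 for miR-2188-3p and 0.48 for miR-2188-5p. Without Kaiya they were 1.54, 1.19, 1.20 and 1.77 in the same order.

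Ratios between single libraries show where the 4 products part. They are log2 ratios of TMM-scaled counts with 0.5 read added, over miRNAs with at least 50 reads in the pair. The hairpin that the Kaiya library does not list was left out of every pair with Kaiya. Each compares 1 library with another, with no replicate check, and pairs that share a library are not independent. Counting intervals are exact, from the Clopper-Pearson interval of the share of reads. The size criterion of the series, a log2 ratio of 1, is used for counts.

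Against Liancheng the ratio of every product was past 1 in every other library, though not every counting interval lay above 1. In Cui Hei over Liancheng the ratios were 2.46 (interval 2.17 to 2.77) for miR-144-3p, 2.65 (2.12 to 3.30) for miR-144-5p, 2.48 (1.58 to 3.72) for miR-2188-3p and 3.59 (3.28 to 3.93) for miR-2188-5p, and 7 of 105 miRNAs (6.67%) were at or above 1. The black F2 ratios to Liancheng were 2.24, 2.44, 2.47 and 3.28 in the same order, where 6 of 103 miRNAs (5.83%) were at or above 1. The 4 were thus 4 of the 7 and 4 of the 6 miRNAs past 1, from which nothing is read, since they were picked with these counts known. White Kaiya and white F2 were above Liancheng as well. Kaiya stood 1.59, 2.35, 1.75 and 3.36 above Liancheng (7 of 103 miRNAs, 6.80%, at or above 1), and white F2 stood 1.29, 1.99, 1.85 and 2.40 above Liancheng (6 of 103, 5.83%). In both of these pairs miR-2188-5p had the highest ratio of all miRNAs.

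Among the other 4 libraries the ratios were smaller. In Cui Hei over white F2, 2 of the 4 were past 1, miR-2188-5p at 1.19 (1.07 to 1.31) and miR-144-3p at 1.17 (1.00 to 1.33), where 6.54% of 107 miRNAs were. The remaining pair stood at 0.66 for miR-144-5p and 0.63 for miR-2188-3p. Within the F2 cross, black over white, 0 of the 4 reached 1 (2.88% of 104 miRNAs did), but with library size alone in place of TMM 2 did, miR-144-3p at 1.13 and miR-2188-5p at 1.06. The F2 values under TMM were 0.95 (0.76 to 1.13) for miR-144-3p, 0.88 (0.74 to 1.02) for miR-2188-5p, 0.62 (0.08 to 1.16) for miR-2188-3p and 0.44 (0.14 to 0.75) for miR-144-5p, all with intervals above 0.

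Kaiya, the white library nearest to black in the joint level, separated the products. In Cui Hei over Kaiya 0 of the 4 reached 1 (2.78% of 108 miRNAs did), with miR-144-3p at 0.87 (0.74 to 1.00), miR-2188-3p at 0.73 (0.32 to 1.16), miR-144-5p at 0.31 (0.10 to 0.52) and miR-2188-5p at 0.23 (0.14 to 0.31). In black F2 over Kaiya 0 reached 1 as well (4.81% of 104 did). There miR-144-3p stood at 0.65 (0.50 to 0.80) and miR-2188-3p at 0.71 (0.22 to 1.20), while both 5p arms had intervals that held 0, from -0.17 to 0.35 for mir-144 and from -0.19 to 0.02 for mir-2188. The 3p arm of each hairpin was thus further above Kaiya than its 5p arm in both black libraries, and the intervals of the arms did not overlap. For mir-2188 in Cui Hei they parted only narrowly, at 0.31 against 0.32. The 3p shares of mir-2188 in Cui Hei and Kaiya, given further on from the same reads, had overlapping intervals. Nothing is therefore read from that gap. Kaiya over white F2 gave 0 past 1 (2.86% of 105 did), with miR-2188-5p at 0.96 (0.84 to 1.08) and the other 3 between -0.10 and 0.35. With DESeq2 size factors miR-2188-5p stood at 1.06 there, and with library size alone at 1.03, both past 1. The black libraries were the most alike: in Cui Hei over black F2 the ratios lay between 0.02 and 0.31 and 0 reached 1 (0.943% of 106 miRNAs did).

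The balance of the arms is a ratio within a hairpin and a library, so no scaling between libraries enters it. In mir-144 the 3p arm was the larger in every library. Its share of the hairpin's reads was 76.5% in Cui Hei (1297 of 1696 reads; 95% Clopper-Pearson interval 74.4% to 78.5%), 76.5% in black F2 (621 of 812; 73.4% to 79.4%) and 79.1% in Liancheng (102 of 129; 71.0% to 85.7%). It was 68.8% in Kaiya (784 of 1140; 66.0% to 71.5%) and 69.6% in white F2 (406 of 583; 65.7% to 73.4%). The Kaiya interval lay below those of both black libraries, and that of white F2 below Cui Hei. Liancheng, with the fewest reads, overlapped all 4 others. In pooled reads the 3p share was 73.6%.

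In mir-2188 the balance was the reverse and steeper, with the 5p arm at 95.1% of pooled reads. The 3p share was 4.94% in Cui Hei (122 of 2468 reads; 4.12% to 5.87%), 5.97% in black F2 (67 of 1122; 4.66% to 7.52%), 3.53% in Kaiya (81 of 2295; 2.81% to 4.37%), 7.06% in white F2 (55 of 779; 5.36% to 9.09%) and 9.68% in Liancheng (9 of 93; 4.52% to 17.6%). Kaiya was the lowest, and its interval lay below those of black F2, white F2 and Liancheng but overlapped that of Cui Hei. Liancheng and white F2 were the highest, so both extremes were white libraries. As reads of 5p per read of 3p, the ratio ran from 9.33 in Liancheng to 27.3 in Kaiya.

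**Figure D4:**
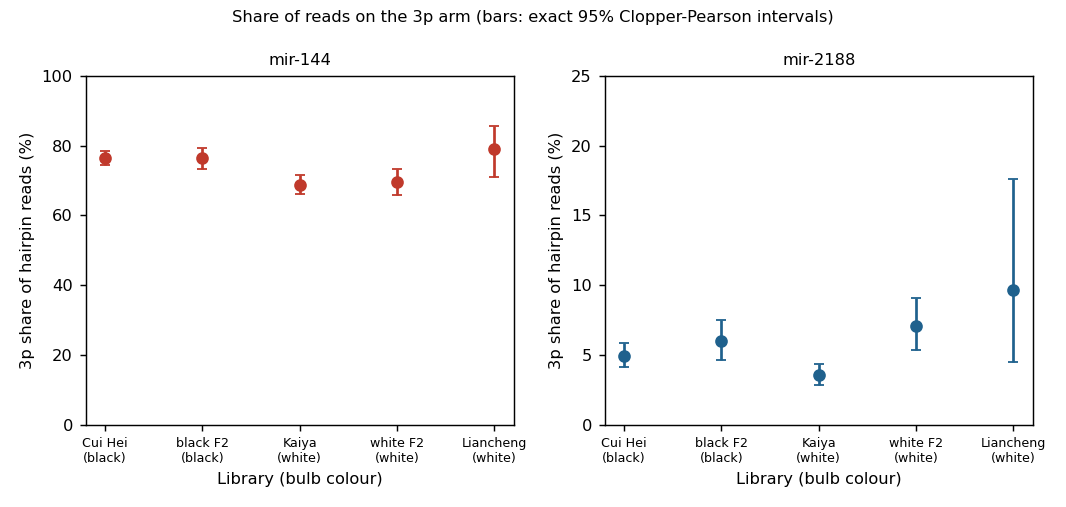
Share of a hairpin's reads on its 3p arm (percent) in each library for mir-144, left, and mir-2188, right, with exact 95% Clopper-Pearson bars; the vertical scales differ. The mir-144 shares lie between 68.8% and 79.1%, the mir-2188 shares between 3.53% and 9.68%.

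Between colours neither balance passed the test. The products were chosen because they varied together, which favours a steady balance between arms, so nothing is read from this outcome. The log2 ratio of 5p to 3p reads of mir-144 was -1.70 in both black libraries and -1.41 ± 0.42 in white (SD, n = 3), so black minus white gave -0.29 ± 0.30 (SE; limma over 46 hairpins, adjusted p = 0.943). For mir-2188 the black libraries had 4.11 ± 0.21 (SD, n = 2) and the white ones 3.87 ± 0.82 (SD, n = 3), so black minus white gave 0.24 ± 0.46 (SE; limma, adjusted p = 0.943). Of the 46 hairpins 1 was called (2.17%), neither mir-144 nor mir-2188, and 3 had an unadjusted p under 0.05. The mir-2188 difference turned to -0.12 without Liancheng, and the mir-144 difference was -0.53 without it. Over the 5 libraries the SD of the log2 ratio was 0.34 in mir-144, where counting error alone gives 0.17, and 0.60 in mir-2188, where it gives 0.27. The range over libraries of mir-144 (0.76) equalled the median of the 46 hairpins (0.76), while that of mir-2188 (1.61) was in place 6. The mir-2188 range ran from 3.15 in Liancheng, which rests on 9 reads of 3p, to 4.76 in Kaiya.

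The hairpins also stood in unequal proportion to each other. Reads of mir-2188 per read of mir-144 numbered 1.46 in Cui Hei (counting interval 1.37 to 1.55), 1.38 in black F2 (1.26 to 1.51), 1.34 in white F2 (1.20 to 1.49), 2.01 in Kaiya (1.87 to 2.16) and 0.721 in Liancheng (0.546 to 0.949). Cui Hei and both F2 libraries had overlapping intervals. Kaiya stood above these 3 and Liancheng below them, so the white breeds lay at opposite ends and white F2 between them. This proportion needs no scaling between libraries. The lesser arms, miR-2188-3p per miR-144-5p, gave a narrower span. Kaiya was the lowest at 0.228, followed by Cui Hei at 0.306, white F2 at 0.311, Liancheng at 0.333 and black F2 at 0.351. No intervals were computed for these ratios, and that of Liancheng rests on 9 and 27 reads, so nothing is read from their order.

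Blood and vessel miRNAs were looked at beside the 4, from lists chosen with earlier results of these data known. Of the 4 families of the erythroid list, miR-144 and miR-2188 gave values, while miR-451 and miR-486 were not analysed here. The name erythroid therefore rests on what is known of miR-144 in other animals, and the part of blood in these levels was not tested. The summed level of the list ran from 138 CPM in Liancheng to 1118 CPM in Cui Hei, an 8.13-fold span, with 932 CPM in black F2, 835 CPM in Kaiya and 521 CPM in white F2. The names with values on this list are the same 4 products, chosen because they varied together, so nothing is read from its wide span.

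Of the 5 leukocyte families only miR-146b gave values, and miR-142, miR-223, miR-150 and miR-155 were not analysed here. miR-146b, an immune-response miRNA that other tissues also make, did not follow the erythroid order. miR-146b-1,2-5p was lowest in Cui Hei (48707 CPM) and highest in white F2 (95883 CPM), with 58200 CPM in Liancheng. miR-146b-2-3p had the same lowest and highest libraries, from 95.05 to 119.6 CPM, with 110.9 CPM in Liancheng. The summed list spanned 1.97-fold.

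Of the 5 endothelial and vessel families, miR-126, miR-130a and miR-218 gave values. miR-126, the miRNA most closely tied to endothelium, was not low in Liancheng. miR-126-3p stood at 1693 CPM in Liancheng, its highest library, against 1311 in Cui Hei, 1342 in black F2, 1171 in white F2 and 1042 in Kaiya. miR-126-5p stood at 15449 CPM in Liancheng and was highest in black F2 (15689 CPM) and lowest in Kaiya (10328 CPM). The summed vessel list ran from 17936 CPM in Kaiya to 23265 CPM in black F2, a 1.30-fold span, with 23014 CPM in Liancheng. Of the vessel list, miR-130a-5p (log2 range 1.54) was lowest in Liancheng, where it had 5 reads. miR-130a-3p (log2 range 0.17) and miR-218-5p (0.20) were nearly level, and miR-218-3p had 0 to 3 reads per library, at or under the floor. edgeR called 0 of the 4 erythroid, 0 of the 2 leukocyte and 0 of the 5 vessel miRNAs tested, where it called 1.75% of all 114, so nothing is read from these counts.

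The summed levels of lists for the bulk of the bulb varied little. They spanned 1.24-fold over the 8 keratinocyte names and 1.37-fold over the 4 dermal mesenchyme names. In Liancheng these lists stood at 106838 and 76834 CPM, the former above Cui Hei alone and the latter above every other library. Abundant names set these sums. In Liancheng the most abundant keratinocyte name held 73008.5 CPM, and the most abundant dermal name 76378 CPM. Single names had log2 ranges of 0.27 to 0.88 (keratinocyte) and 0.46 to 1.00 (dermal), and some keratinocyte names were highest in Liancheng. The muscle list, miR-499 alone, lay between 21.9 CPM in Kaiya and 79.1 CPM in white F2. The pigment cell list, miR-204 alone, spanned 112-fold with the black libraries high and Liancheng (121 CPM) level with Kaiya (104 CPM) and white F2 (107 CPM). The liver list, miR-122, had no values here.

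**Figure D5:**
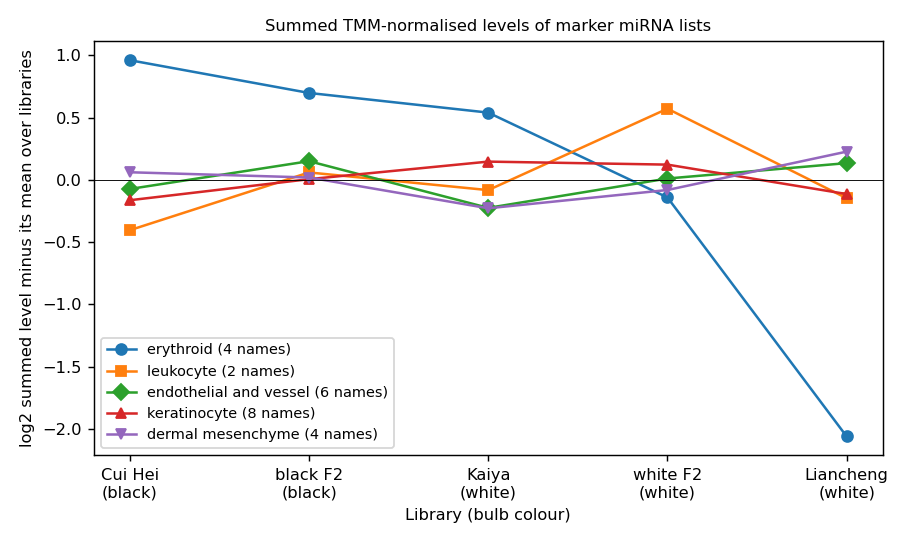
Log2 summed level of 5 marker lists, measured from each list's mean over the libraries, in the 5 libraries; lines only join the values of 1 list. The erythroid list spans 8.13-fold, the leukocyte list 1.97-fold, the vessel list 1.30-fold, the keratinocyte list 1.24-fold and the dermal list 1.37-fold. The erythroid list holds only the 4 products, which were chosen because they varied together.

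The miRNAs whose centred profiles came nearest to the joint level were sought among 109 others with at least 50 reads. By root mean square difference in log2 over the 5 libraries they were miR-130a-5p (0.52), miR-193b-5p (0.74), let-7d-3p (0.74), miR-2131-5p (0.77) and miR-153-3p (0.81), with a median of 1.07 over the 109. The nearest of them, miR-130a-5p, is the lesser arm of mir-130a, on the vessel list, and rests on 33 reads in Cui Hei, 20 in black F2, 24 in Kaiya, 17 in white F2 and 5 in Liancheng. Its levels were 8.86, 9.63, 5.83, 6.50 and 3.10 CPM in that order of libraries, lowest in Liancheng and higher in both black libraries. No intervals are given at these few reads, so nothing is read from that order. miR-193b-5p (4 to 28 reads per library) and let-7d-3p (3 to 22 reads) also rest on few reads. miR-2131-5p had 18.6 CPM in Liancheng and 25.05 to 34.0 CPM elsewhere. miR-153-3p had 129 CPM in Liancheng and 178 to 199.5 CPM elsewhere. Without Liancheng none of these 5 was among the nearest 5. The difference is not scaled for range, and the least variable of the 109, with a log2 range of 0.078, stood at 1.02. With log2 ranges of 0.85 and 0.62, miR-2131-5p and miR-153-3p were thus only somewhat nearer than a nearly flat profile.

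miR-101 is shown for its sequence, since it shares a run of early bases with miR-144-3p. Capitals again mark bases 2 to 8.
miR-101-1,2-3p: gUACAGUAcugugauaacuga
The run ACAGUA lies at bases 2 to 7 of miR-144-3p and at bases 3 to 8 of miR-101-1,2-3p, so it is offset by 1 base. Of the 134 listed mature sequences, 3 hold this run within their first 9 bases. miR-101-1,2-3p stood at 2355 CPM in Cui Hei, 2272 in black F2, 2045 in Kaiya, 2805 in white F2 and 2262.5 in Liancheng. It was thus more abundant than miR-144-3p in every library, and its Liancheng level lay within the range of the others.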

How the data were processed

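Small RNA of pooled duck feather bulbs was counted by the authors with miRDeep2 2.1.2, per the series' design text, and FastQC and Bowtie 0.12.2 are in the submitters' processing notes. No source used here names a genome build. The deposited unit is a raw read count per hairpin and per mature miRNA, and per the file headers of 3 tables reads a few bases beyond the mature ends were included. The authors also deposited CPM, which equal the count over the table's total to within 0.005. Where several hairpins list the same mature name, its highest count was used. The hairpin not listed for Kaiya was taken as 0, but was left out of the ratios between Kaiya and other single libraries.

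The libraries held 1601329 to 4269854 such reads. Reads carry no molecular identifiers, so intervals and floors cover counting error only. The filterByExpr filter kept 114 of 134 names. Levels used TMM. Black (n = 2) and white (n = 3) were compared with edgeR 4.0.16 in R 4.3.3 and arm ratios (pseudocount 0.5, at least 50 reads per arm) with limma 3.58.1, with Benjamini-Hochberg adjustment and a threshold of 0.05. DESeq2 1.42.0, limma-voom, other scalings and filters, stock as a block and leaving out each library were alternatives. Intervals came from SciPy 1.17.1 and folds from ViennaRNA 2.7.2. The fits were also run on simulated data, whose outcome is not given here, so nothing about the fits is read from it. The changes in level simulated for edgeR were larger than the fitted differences of the 4 products. The p-values measure the spread between pools that differ in breed. No batch or date is given in the labels. Named are the 4 products, the 5 miRNAs nearest to their joint profile, and all listed blood and vessel miRNAs, plus miR-204 and miR-499, which stand alone for their lists, miR-101-1,2-3p, chosen for its sequence, and miR-99a-5p, chosen after its values were seen. Members and lists were chosen with earlier results of these data known.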

Additional observations from a re-analysis of the deposited data

How the results depend on the processing

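The joint log2 range of the 4 products was 2.47 to 3.12 under DESeq2 size factors, library size alone and other ways of averaging. On leaving out a library it was 0.91 to 2.80, the lowest without Liancheng. Upper-quartile scaling was not run for the joint level. Liancheng was the lowest library in each setting that held it. Of the 5 nearest miRNAs, 0 to 5 were shared with the main setting on leaving out a library (0 without Liancheng, 3 without black F2). edgeR called 2 to 3 miRNAs on leaving out a library and 2 in all other settings, never 1 of the 4, whose differences stayed positive throughout. The median difference of all miRNAs, -0.03, became -0.16 under upper-quartile scaling and 0.10 under library size alone; miR-144-3p then stood at 1.07 and 1.39. With stock (pure breed or F2) as a block, the closest to a pairing the labels give, the differences were 1.24, 0.78, 1.02 and 1.00 and 2 miRNAs were called; the block changed no call. No paired analysis of single birds was possible because each library is a pool. In the arms, the mir-144 difference was -0.53 to -0.15 and the mir-2188 difference -0.12 to 0.68 on leaving out a library; the block gave -0.32 and 0.28. The count of called hairpins went from 1 to 0 with 200 reads per arm, where 34 hairpins and not 46 were tested. The 1 called hairpin, mir-204, had 168 reads of 3p over the libraries, so that minimum took it out of the test. When a white library was left out the count lay between 0 and 1 (0 without Liancheng or white F2). The number of miRNAs past a log2 ratio of 1 either way in Cui Hei over black F2 was 2. It was 1 with library size alone, where the median log2 ratio of the pair moved from -0.01 to 0.03, and 6 with a minimum of 10 reads. That minimum also gave 8 in black F2 over white F2, from 5, and 13 in black F2 over Liancheng, from 7, since rarer miRNAs enter. With library size alone miR-144-3p reached 1.02 in Cui Hei over Kaiya, and miR-144-3p and miR-2188-5p reached 1.13 and 1.06 in black F2 over white F2. In Kaiya over white F2 miR-2188-5p reached 1.06 with DESeq2 size factors and 1.03 with library size alone. With upper-quartile scaling miR-144-3p and miR-2188-5p had 0.94 and 0.96 in Cui Hei over white F2. In Liancheng, miR-2188-3p rests on 9 reads and miR-144-5p on 27, which limits every ratio that uses them.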
